A study of Homo sapiens with 6 samples.

Results

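Known target genes of p53, 9 in number, were followed through knockdown aimed at the EWS-FLI1 fusion: MDM2, TP53INP1, TP53I3, SESN1, ZMAT3, RRM2B, FAS, TNFRSF10B and GDF15. They were chosen by symbol as well known p53 targets, with earlier results of these data known. All 9 were found among the 26931 gene symbols that each library lists. The cells were TC32, an established human Ewing sarcoma line. They were transfected with siNeg, a control siRNA, with siEWSR1, which targets EWSR1, or with siFLI1, which targets FLI1, and total RNA was taken 48 h later, with 2 libraries per group and 6 in all. All groups are the same line and all carry an siRNA, so there is 1 genetic background and no untransfected library is used here. Ewing sarcoma is driven by a fusion of the RNA-binding protein gene EWSR1 with the ETS transcription factor gene FLI1, so either siRNA can in principle reach the fusion transcript along with 1 normal partner. Levels are FPKM, fragments scaled to transcript length and to the total of the library.

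The p53 protein is a transcription factor that is held low by the ubiquitin ligase MDM2 and released when DNA is damaged or growth signals are out of balance. It binds a response element made of adjacent copies of a 10-base unit and raises genes that stop the cell cycle, repair DNA, limit oxidative stress or prepare the cell for death. Because MDM2 is itself a target, the pathway turns itself down. Most control of p53 is on the protein, which RNA levels do not show.

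The 6 libraries were alike in depth. The deposited intervals imply 15159081 to 16298379 fragments each, and 12079 to 12741 genes reached an FPKM of 1. EWSR1 stood at 46.5 and 47.2 FPKM with siNeg and 34.6 and 32.3 with siEWSR1, and FLI1 at 10.9 in both siNeg libraries and 8.98 and 8.56 with siFLI1. Both fell, EWSR1 by 0.48 on the log2 scale (limma adjusted p = 0.000444) and FLI1 by 0.29 (limma adjusted p = 0.00423). The partner that each siRNA does not target did not pass the test, with a log2 change of 0.11 for EWSR1 with siFLI1 (limma adjusted p = 0.11) and -0.04 for FLI1 with siEWSR1 (limma adjusted p = 0.534). These values mix the normal and the fusion transcripts, so the level of the fusion itself was not measured. All 8 Ewing sarcoma markers looked up, such as CD99, NKX2-2 and NR0B1, were present, and all 8 fell with siEWSR1 (median log2 change -0.85) and 7 with siFLI1 (median -0.97). Over all tested genes, 31% fell with siEWSR1 and 29.6% with siFLI1 (median log2 change 0.01 and 0.04). The marker list was drawn up with earlier results of these data known, so its direction is not independent evidence. Unlike these markers, PTPRC, CD3E and HBB of blood, EPCAM and KRT19 of epithelium and VWF of endothelium were at or near 0. Of 14 markers of these other cell types 3 passed the filter. CLDN4 rose, from 0.219 and 0.253 FPKM with siNeg to between 1.39 and 1.97, ESRP1 fell, from 2.41 and 1.24 to at most 0.0758, and CD68 did not pass the test. Their part in the results below was not tested. Whether the replicates came from separate cultures is not in the labels, and p-values therefore reflect the spread between these libraries alone, which may be technical. In RNA from a whole culture, fewer cells that express a gene and less of its RNA per cell cannot be told apart.

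Copies of the p53 response element stand close to the start of 4 of the 6 members that a RefSeq promoter table (GRCh38.p14) lists, and they are shown because they do not depend on any expression value. The table gives 300 bases per start, from 250 before to 50 after it. A site was 20 bases, a pair of adjacent 10-base units with the C and G of both CNNG cores kept and at most 3 mismatches to the consensus, which reads the same on both strands. This rule was set after the MDM2 and GDF15 windows had been seen. Such a site is in 1.11% of all 34943 windows, and 1.36% of 27167 genes have one. The sites are in capitals below, each read 5′ to 3′ on the strand of its gene. The MDM2 site lies in chr12:68808883-68808982 (plus strand), has 2 mismatches and stands before the start of the internal promoter. The SESN1 site lies in chr6:109008978-109009077 (minus strand) and has 3 mismatches. The FAS site lies in chr10:88991269-88991368 (plus strand), has 2 mismatches and belongs to the most downstream of 3 listed starts. The GDF15 site lies in chr19:18386181-18386207 (plus strand), has 3 mismatches and is inside the transcribed part. A match in sequence is a description and not evidence of binding in these cells.
MDM2: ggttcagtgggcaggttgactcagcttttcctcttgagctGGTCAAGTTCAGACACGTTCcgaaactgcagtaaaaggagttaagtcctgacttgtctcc
SESN1: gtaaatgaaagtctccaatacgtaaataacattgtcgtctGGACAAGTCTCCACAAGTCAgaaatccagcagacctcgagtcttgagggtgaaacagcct
FAS: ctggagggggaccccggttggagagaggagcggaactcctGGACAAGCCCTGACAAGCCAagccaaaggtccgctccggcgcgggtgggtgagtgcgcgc
GDF15: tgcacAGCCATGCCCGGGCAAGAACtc
No site was found in the windows of TP53I3 and ZMAT3, which says only that these letters are not in those stretches. Among the carriers of a site, MDM2, SESN1 and GDF15 rose with both siRNAs and FAS fell with both, as given next.

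Relative to siNeg, 6 of the 9 members rose with siEWSR1 and 2 fell, and 5 rose with siFLI1 and 2 fell. Of all 13043 genes tested, 33.2% were called higher and 31% lower with siEWSR1, and 35.7% higher and 29.6% lower with siFLI1, so widespread change is the background against which these counts stand. The median log2 change over the members was 0.79 with siEWSR1, beside 0.01 over all tested genes, and 1.02 with siFLI1, beside 0.04. Both comparisons use the same siNeg libraries and are therefore not independent of each other. As the members were chosen with earlier results of these data known, their direction is not independent evidence. All 9 members passed the filter, which asked for 1 FPKM or more in 2 libraries or more, ZMAT3 only through the libraries of the siRNAs against the fusion partners, where it is high, so its call is no support for the count of 6. Genes were tested with limma on log2(FPKM + 0.5), with p-values adjusted over all tested genes and a threshold of 0.05, and folds are on that scale, which understates the change of low genes.

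**Figure D1:**
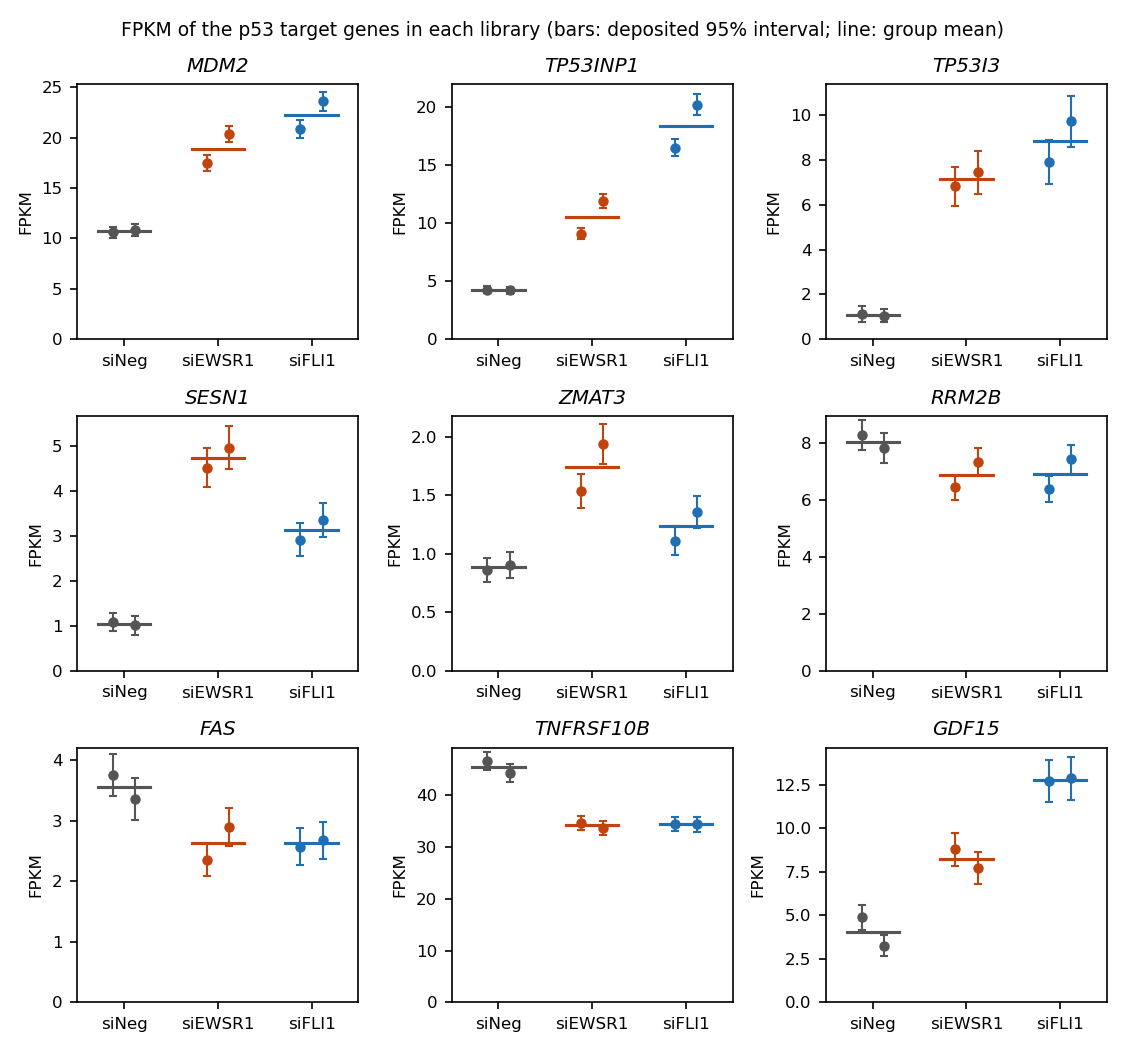
FPKM of the 9 p53 target genes (y axes, each from 0) in the siNeg, siEWSR1 and siFLI1 groups (x axis), with 1 point per library, its deposited 95% interval as a bar and the group mean as a line. TP53I3 and SESN1 start near 1 FPKM and lie well above it with both siRNAs, whereas TNFRSF10B goes from about 45 to about 34 FPKM.

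MDM2 encodes the ubiquitin ligase that marks p53 for degradation, and is the feedback arm of the pathway. Under siNeg it stood at 10.6 and 10.8 FPKM, compared with 17.5 and 20.3 with siEWSR1, and 20.9 and 23.6 with siFLI1 (hg19, chromosome 12, 69201952 to 69239324). Every library of either siRNA was above both controls, and all siFLI1 libraries were above all siEWSR1 libraries. MDM2 rose by 0.79 ± 0.09 on the log2 scale with siEWSR1 (SE, limma adjusted p = 0.000481), a 1.73-fold change. With siFLI1 it rose by 1.02 ± 0.09 (limma adjusted p = 0.000148), or 2.02-fold. Its intervals rest on 1338 to 2452 implied fragments per library and span 4.04% to 5.47% of the value on either side. They are small beside the changes from siNeg.

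TP53INP1 encodes a small nuclear and autophagy protein that helps the kinase HIPK2 to phosphorylate p53. It was at 4.28 and 4.20 FPKM with siNeg, 9.09 and 11.9 with siEWSR1, and 16.5 and 20.2 with siFLI1 (hg19, chromosome 8, 95938200 to 95961615). The 3 groups did not overlap, and they stood in the order siNeg, siEWSR1, siFLI1. The rise was 1.20 ± 0.14 on the log2 scale with siEWSR1 (limma adjusted p = 0.000493, 2.30-fold) and 1.98 ± 0.14 with siFLI1 (limma adjusted p = 5.77e-05, 3.95-fold). Implied fragments rose less in proportion than FPKM. They were 746 and 706 with siNeg, 1305 and 1583 with siEWSR1, and 1915 and 2133 with siFLI1. Why they differ from FPKM was not tested. TP53INP2, a relative of TP53INP1 that also acts in autophagy, rose as well, from a mean of 10.5 FPKM to 16.5 with siEWSR1 and 17.3 with siFLI1.

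TP53I3, also called PIG3, encodes a quinone oxidoreductase that makes reactive oxygen species ahead of p53-driven death. It changed more in size than any other member, from siNeg values of 1.13 and 1.06 FPKM to 6.81 and 7.44 with siEWSR1 and 7.91 and 9.72 with siFLI1 (hg19, chromosome 2, 24300303 to 24308085). The control values lie low among tested genes, near the 8.42 percentile, and the siFLI1 mean lies at the 50th. The rise was 2.25 ± 0.11 on the log2 scale with siEWSR1 (limma adjusted p = 1.65e-05, 4.77-fold) and 2.54 ± 0.11 with siFLI1 (limma adjusted p = 8.9e-06, 5.81-fold). The siNeg values rest on as few as 45 implied fragments, with an interval of up to 29.74% on either side. TP53I3 lies wholly within the map of FAM228B, and the sources used here do not give the strand setting of the counting, so reads of these genes may not be separable. FAM228B itself stood at 1.86 and 2.13 FPKM with siNeg, 2.12 and 2.30 with siEWSR1 (log2 change 0.12, limma adjusted p = 0.406) and 3.69 and 4.59 with siFLI1 (0.89, limma adjusted p = 0.000757). What part this overlap has in the TP53I3 values was not tested. CRYZ, another quinone oxidoreductase, fell with both siRNAs, from a mean of 14.6 FPKM to 9.38 and 10.3.

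SESN1 encodes sestrin 1, a stress protein that restrains the growth kinase complex mTORC1 and lowers peroxides. Its levels were 1.09 and 1.01 FPKM with siNeg, 4.52 and 4.97 with siEWSR1, and 2.92 and 3.36 with siFLI1 (hg19, chromosome 6, 109307640 to 109415708). Here the siEWSR1 libraries were the highest, and no groups overlapped. SESN1 rose by 1.76 ± 0.10 on the log2 scale with siEWSR1 (limma adjusted p = 2.62e-05, 3.38-fold) and by 1.23 ± 0.10 with siFLI1 (limma adjusted p = 8.22e-05, 2.34-fold). The other sestrins moved in opposite ways. SESN3, which the FOXO factors control, was at 10.7 and 11.2 FPKM with siNeg, 71.3 and 91.0 with siEWSR1 and 66.7 and 81.6 with siFLI1, a rise of 2.83 and 2.70 on the log2 scale (limma adjusted p = 1.71e-05 and 1.60e-05). SESN2, a target of both p53 and the stress factor ATF4, went from 29.4 and 28.7 FPKM with siNeg to 10.0 and 10.1 with siEWSR1 and 9.37 and 10.1 with siFLI1. It fell by 1.49 and 1.52 on the log2 scale (limma adjusted p = 9.39e-06 and 7.21e-06), so the sestrin with the highest level in siNeg became lower than SESN3 in all libraries of both siRNAs.

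ZMAT3 encodes an RNA-binding zinc finger protein that acts in splicing and is a tumour-suppressing part of the p53 response. It was the lowest member in each group, at 0.865 and 0.905 FPKM with siNeg, 1.54 and 1.94 with siEWSR1, and 1.11 and 1.36 with siFLI1 (hg19, chromosome 3, 178735011 to 178789656). Both siRNAs gave values above both controls. Its log2 change with siEWSR1 was 0.69 ± 0.13 (limma adjusted p = 0.0037, 1.61-fold). The siNeg values lie under the filter on low values, which ZMAT3 passed through its higher groups alone, and with no filter the limma adjusted p with siEWSR1 was 0.0142. With siFLI1 the change was 0.32 ± 0.13 and did not pass the test (limma adjusted p = 0.0656), although 6 of 16 alternatives called it higher, with a lowest limma adjusted p of 0.0446. Quantile normalization ended the siEWSR1 call (log2 change 0.33, limma adjusted p = 0.108) and turned the siFLI1 change to -0.14, so the direction of ZMAT3 with siFLI1 depends on the scaling. Its relative ZMAT1 rose, from a mean of 8.86 FPKM to 11.4 with siEWSR1 and 11.8 with siFLI1, whereas ZMAT2 and ZMAT5 did not pass the test.

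RRM2B encodes the p53-inducible small subunit of ribonucleotide reductase, the enzyme that makes DNA building blocks, and serves repair outside S phase. It was the 1 member that passed the test with neither siRNA. Its values were 8.27 and 7.83 FPKM with siNeg, 6.44 and 7.34 with siEWSR1, and 6.38 and 7.42 with siFLI1 (hg19, chromosome 8, 103216729 to 103251346). Both siRNAs left it below both controls, with a log2 change of -0.21 ± 0.10 for each (limma adjusted p = 0.0939 with siEWSR1 and 0.0958 with siFLI1). Quantile normalization brought the siFLI1 change to -0.28, past the threshold (limma adjusted p = 0.040). The subunits used in S phase fell. The large subunit RRM1 was at a mean of 101 FPKM with siNeg, 56.6 with siEWSR1 and 54.9 with siFLI1. The small subunit RRM2 was at 88.5, 43.7 and 44.0 FPKM, falls of 1.01 and 1.00 on the log2 scale (limma adjusted p = 7.84e-05 and 7.12e-05).

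FAS and TNFRSF10B encode receptors that start cell death at the surface when their ligands bind, FAS for FASLG and TNFRSF10B (DR5) for TNFSF10 (TRAIL). Both are p53 targets, and both were lower after knockdown. FAS stood at 3.76 and 3.36 FPKM with siNeg, 2.36 and 2.90 with siEWSR1, and 2.57 and 2.68 with siFLI1 (hg19, chromosome 10, 90750316 to 90776818). It fell by 0.38 ± 0.11 on the log2 scale with either siRNA (limma adjusted p = 0.0199 with siEWSR1 and 0.0204 with siFLI1), or 1.30-fold with siEWSR1. These calls are close to the threshold. Without siNeg replicate 1 both were lost (change -0.31 for each, limma adjusted p = 0.113 and 0.115), as they were with no filter on low values (0.0558 and 0.0556). Quantile normalization made the siFLI1 change larger, at -0.59. The siEWSR1 call was also lost without siEWSR1 replicate 1 (-0.25, limma adjusted p = 0.0828), and the siFLI1 call without siFLI1 replicate 1 (-0.35, 0.0891) or replicate 2 (-0.40, 0.0645). FAS shares 839 bases at its start with ACTA2, the smooth muscle actin gene, which is far more abundant (36.6 and 39.6 FPKM with siNeg) and rose, to 51.8 and 52.1 with siEWSR1 and 70.2 and 74.8 with siFLI1. What part that overlap has in the FAS values was not tested.

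TNFRSF10B was the most abundant member in all groups, at 46.5 and 44.2 FPKM with siNeg, 34.6 and 33.7 with siEWSR1, and 34.4 in both siFLI1 libraries (hg19, chromosome 8, 22877648 to 22926700). The libraries of both siRNAs lie within 1 FPKM of each other and below both controls. It fell by 0.40 ± 0.05 on the log2 scale with siEWSR1 (limma adjusted p = 0.000723) and by 0.40 with siFLI1 (limma adjusted p = 0.000751), 1.32-fold with siEWSR1. This fall kept its call in all 17 alternatives run for each siRNA, but quantile normalization made it smaller with siEWSR1, at -0.26. Every alternative starts from the same FPKM. Implied fragments fell less in proportion than FPKM. They were 2757 and 2710 with siNeg, 2518 and 2367 with siEWSR1, and 2331 and 2220 with siFLI1. Why they differ from FPKM was not tested. TNFRSF10B is induced by the stress factor CHOP (DDIT3) as well as by p53. Its neighbour RHOBTB2 shares 63 bases with it and rose, from 1.12 and 1.04 FPKM to between 3.53 and 4.27.

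GDF15 encodes a secreted cytokine of the TGF-beta superfamily that signals stress and that both p53 and the ATF4 pathway induce. It was at 4.87 and 3.25 FPKM with siNeg, 8.77 and 7.73 with siEWSR1, and 12.7 and 12.8 with siFLI1 (hg19, chromosome 19, 18496968 to 18499986). The siNeg libraries differ from each other more than the siFLI1 libraries do, yet no groups overlap. The rise was 0.96 ± 0.16 on the log2 scale with siEWSR1 (limma adjusted p = 0.0024, 1.95-fold) and 1.56 ± 0.16 with siFLI1 (limma adjusted p = 0.00027, 2.96-fold). The related ligand GDF11 rose too, from a mean of 11.3 FPKM to 29.8 with siEWSR1 and 23.3 with siFLI1, although it overlaps SARNP on the map. The GDF15 receptor gene GFRAL, known from the hindbrain, was listed at 0 in all 6 libraries.

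**Figure D2:**
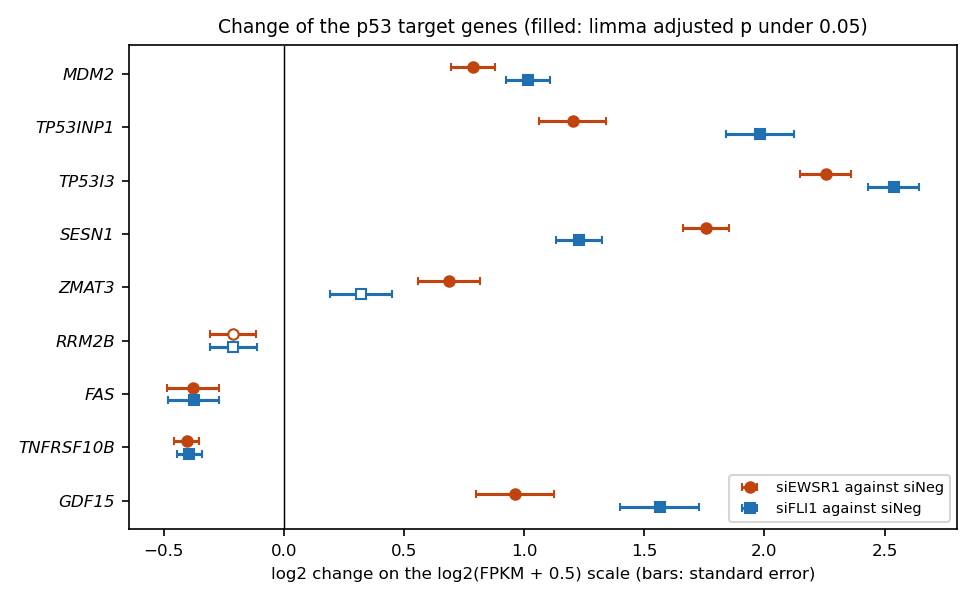
Log2 change on the log2(FPKM + 0.5) scale (x axis) of each member (y axis) for siEWSR1 against siNeg and siFLI1 against siNeg. Bars are standard errors, and markers are filled where the limma adjusted p was under 0.05. MDM2, TP53INP1, TP53I3, SESN1 and GDF15 lie right of 0 with filled markers for both siRNAs, and FAS and TNFRSF10B lie left of it for both.

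As FPKM is scaled to length, levels can be ordered across genes. With siNeg the order of mean FPKM was TNFRSF10B (45.4), MDM2 (10.7), RRM2B (8.05), TP53INP1 (4.24), GDF15 (4.06), FAS (3.56), TP53I3 (1.10), SESN1 (1.05) and ZMAT3 (0.885). The ranges of TP53INP1 and GDF15, of GDF15 and FAS, and of TP53I3 and SESN1 overlapped. With siFLI1 it became TNFRSF10B (34.4), MDM2 (22.2), TP53INP1 (18.3), GDF15 (12.8), TP53I3 (8.81), RRM2B (6.90), SESN1 (3.14), FAS (2.63) and ZMAT3 (1.23), with no overlap between neighbours. With siEWSR1 the order was the same as with siFLI1, and only TP53I3 (7.13) and RRM2B (6.89) overlapped.

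A direct comparison of the 2 siRNAs against the fusion partners called 1 member higher with siEWSR1, SESN1, and 1 lower, TP53INP1. Among all tested genes 0.79% were higher and 3.07% lower with siEWSR1 in that comparison. SESN1 was higher with siEWSR1 by 0.53 on the log2 scale (limma adjusted p = 0.0404, 1.44-fold), and TP53INP1 was lower by 0.78, a log2 change of -0.78 (limma adjusted p = 0.0398, 1.72-fold). Neither call was firm. SESN1 lost it without any 1 of the 6 libraries (change 0.44 to 0.62), and TP53INP1 lost it without any 1 library except siEWSR1 replicate 2 (change -0.60 to -0.92 where it was lost). Over all alternatives their limma adjusted p reached 0.174 for SESN1 and 0.232 for TP53INP1. For 3 members the difference between siRNAs was close to 0, with 95% intervals of -0.14 to 0.12 for TNFRSF10B, -0.23 to 0.23 for RRM2B and -0.26 to 0.26 for FAS. MDM2 (-0.23, interval -0.45 to -0.01, limma adjusted p = 0.204), TP53I3 (-0.28, 0.183), GDF15 (-0.60, 0.094) and ZMAT3 (0.37, 0.159) did not pass the test, and their intervals do not show that the siRNAs act alike.

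MDM4, the partner of MDM2 that masks the activation domain of p53, did not pass the test (log2 change 0.12, limma adjusted p = 0.128, with siEWSR1 and -0.12, 0.144, with siFLI1). PPM1D, a phosphatase that p53 induces and that switches it off, was at 3.62 and 3.21 FPKM with siNeg and 3.96 to 4.37 with either siRNA. Its rise of 0.26 and 0.25 on the log2 scale was just past the threshold (limma adjusted p = 0.0448 and 0.046) and lost the call in 9 and 8 of 16 alternatives. CDKN2A, whose ARF product inhibits MDM2, lay at 0.414 to 0.734 FPKM and was too low to test, as was the p53 relative TP63.

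Of 25 regulators and relatives of p53, 23 were tested. With siEWSR1, 5 rose and 8 fell (median log2 change -0.04), beside 33.2% higher and 31% lower over all tested genes. With siFLI1, 6 rose and 11 fell (median -0.12), beside 35.7% and 29.6%. The relative TP73, which binds many of the same sites, rose from a mean of 8.53 FPKM to 22.7 and 28.1, by 1.36 and 1.66 on the log2 scale (limma adjusted p = 3.15e-05 and 1.28e-05). It overlaps its antisense gene TP73-AS1 on the map, and the strand was not given. Of the kinases that signal DNA damage to p53, CHEK1 and CHEK2 fell and ATM and ATR did not pass the test. CHEK1 went from a mean of 21.6 FPKM to 10.4 and 10.3, and CHEK2 from 25.2 to 12.4 with siEWSR1 and 13.3 with siFLI1. The coactivators EP300 and CREBBP, by contrast, rose by 0.43 and 0.46 on the log2 scale with siEWSR1 and by 0.20 and 0.28 with siFLI1, and USP7, which stabilises MDM2 and p53, fell by 0.50 and 0.38. These 3 were picked after their values were seen.

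Beyond the 9 members, 69 other known p53 targets were listed by role, and 60 could be tested. With siEWSR1, 29 of these rose, 18 fell and 13 did not pass the test (median log2 change 0.18). With siFLI1, 32 rose, 13 fell and 15 did not pass (median 0.30). The shares over all tested genes were 33.2% higher and 31% lower with siEWSR1, and 35.7% and 29.6% with siFLI1. Of those counted as higher, 4 (PLK2, PRDM1, EDA2R and ACER2) passed the filter only through the groups where they are high, and the medians without them are 0.10 and 0.27. Between the siRNAs, 6 of the 60 were lower with siEWSR1, beside 3.07% of all tested genes, and the other 54 did not pass the test. The lists were drawn up with earlier results of these data known, so their direction is not independent evidence. CDKN1A, which encodes the cyclin-dependent kinase inhibitor p21 and is the best known p53 target, was at 5.02 and 5.24 FPKM with siNeg, 43.3 and 44.9 with siEWSR1, and 75.0 and 83.7 with siFLI1. It rose 7.92-fold with siEWSR1 (log2 change 2.99, limma adjusted p = 2.09e-06) and 14.2-fold with siFLI1 (3.82, 8.77e-07), more than any of the 9 members. It was lower with siEWSR1 than with siFLI1 by 0.84 on the log2 scale (limma adjusted p = 0.00554), a call lost in 1 of 17 alternatives.

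Among 10 tested growth arrest targets, 7 rose and 3 fell with each siRNA (median log2 change 0.75 with siEWSR1 and 0.87 with siFLI1). Of all tested genes, 33.2% rose and 31% fell with siEWSR1, and 35.7% and 29.6% with siFLI1. The 7 include PLK2 and PRDM1, which lie under 1 FPKM in both siNeg libraries and passed the filter only where they are high, and without them the medians are 0.46 and 0.69. Besides CDKN1A, BTG2, an antiproliferative cofactor of mRNA decay, rose from a mean of 19.6 FPKM to 49.7 and 46.5. PLK2, a stress-responsive polo-like kinase, went from 0.704 to 2.64 and 3.01, and the repressor PRDM1 from 0.177 to 1.29 and 2.61. Those that fell were CCNG1, the very abundant cyclin G1, from a mean of 219 FPKM to 141 and 133, GADD45A, from 38.0 to 25.7 and 24.8, and E2F7. They were named after their values were seen.

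**Figure D3:**
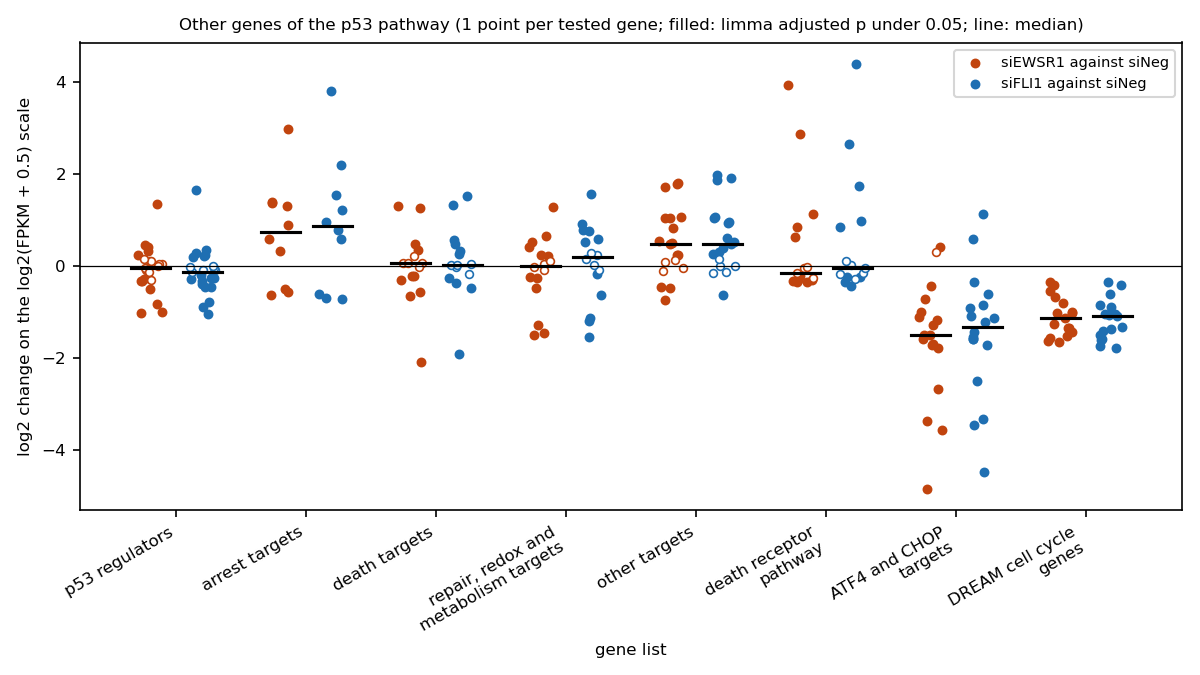
Log2 change against siNeg on the log2(FPKM + 0.5) scale (y axis) of every tested gene in each list (x axis), for siEWSR1 and siFLI1, with filled points where the limma adjusted p was under 0.05 and a line at the median. The DREAM cell cycle list lies wholly below 0, the growth arrest targets have medians of 0.75 and 0.87, and the cell death targets spread to both sides.

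Of 15 tested cell death targets, 4 rose and 6 fell with siEWSR1, and 6 rose and 4 fell with siFLI1 (median log2 change 0.07 and 0.03). Over all tested genes, 33.2% were higher and 31% lower with siEWSR1, and 35.7% and 29.6% with siFLI1. Those counted as higher include EDA2R, which passed the filter only where it is high. The medians without it are 0.03 and 0.03. PHLDA3, which restrains the survival kinase AKT, rose from a mean of 4.03 FPKM to 10.8 and 12.7, and PIDD1, a scaffold for caspase 2, from 15.8 to 22.2 and 23.6. The PIDD1 call was lost with siEWSR1 without siNeg replicate 1 (log2 change 0.33, limma adjusted p = 0.0989), without siEWSR1 replicate 1 (0.33, 0.0661) and with no filter (0.48, 0.0585), and with siFLI1 without siFLI1 replicate 1 (0.54, 0.0512). PMAIP1 (NOXA), a BH3-only protein that neutralises MCL1, went the other way, from 34.2 and 31.5 FPKM with siNeg to 7.33 and 7.51 with siEWSR1 and 8.34 and 8.50 with siFLI1. It fell by 2.07 and 1.90 on the log2 scale (limma adjusted p = 4.40e-06 and 3.89e-06). CASP1 fell from a mean of 10.3 FPKM to 6.39 and 7.26. Named after their values were seen, the pore-forming BAX rose by 0.35 and 0.48 on the log2 scale, and BBC3 (PUMA) lay between 5.17 and 6.23 FPKM in all libraries and did not pass the test.

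Of 16 tested targets in DNA repair, redox control and metabolism, 6 rose and 6 fell with siEWSR1, and 6 rose and 5 fell with siFLI1 (median log2 change 0.01 and 0.20). These counts lie near the shares over all tested genes and say nothing particular about the list. Those shares are 33.2% higher and 31% lower with siEWSR1, and 35.7% and 29.6% with siFLI1. DDB2, which recognises ultraviolet damage, fell from a mean of 27.7 FPKM to 9.84 and 11.8, while XPC of the same repair route, named after its value was seen, rose by 0.42 and 0.53 on the log2 scale. SCO2, a copper chaperone of respiratory complex IV, rose from 1.73 to 5.09 and 6.21 FPKM, but it overlaps NCAPH2 and TYMP. SOD2, the mitochondrial superoxide dismutase, was chosen after its values were seen, because it rose with siFLI1 (46.0 and 36.7 FPKM) from siNeg values of 21.1 and 21.5 and did not pass the test with siEWSR1 (21.1 and 20.8). The difference between the siRNAs was itself called (log2 change -0.95, limma adjusted p = 0.0134). SOD2 overlaps WTAP and ACAT2 on the map.

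The 19 tested targets in trafficking, autophagy and other roles had 12 higher and 3 lower with siEWSR1 and 13 higher and 1 lower with siFLI1 (median log2 change 0.49 and 0.50). All tested genes had 33.2% higher and 31% lower with siEWSR1, and 35.7% and 29.6% with siFLI1. The higher counts include ACER2, which lies under 1 FPKM in both siNeg libraries and passed the filter only where it is high. Without it the medians are 0.37 and 0.45. DRAM1, a lysosomal protein that links p53 to autophagy, rose from a mean of 1.61 FPKM to 6.83 and 7.27, by 1.80 and 1.88 on the log2 scale. VWCE rose from 1.27 to 5.36 and 6.57 FPKM. FAM212B rose from 1.06 to 4.96 and 5.44, although it overlaps DDX20. Like TP53I3, SESN1 and PLK2, these 3 start from a mean under 2 FPKM. A filter that asks for a mean of 5 FPKM leaves 15 and 20 higher genes over the 4 lists in place of 29 and 32. It tests 8745 genes in place of 13043, of which 2518 were higher with siEWSR1 and 2787 with siFLI1. Listed genes under that mean, such as VWCE and FAM212B, were not tested there, which differs from losing a call.

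The death receptor pathway around FAS and TNFRSF10B was counted next. Of 15 tested genes of 20 listed, 5 rose and 6 fell with siEWSR1, and 5 rose and 4 fell with siFLI1 (median log2 change -0.14 and -0.04). These counts lie near the shares over all tested genes, 33.2% higher and 31% lower with siEWSR1 and 35.7% and 29.6% with siFLI1, and say nothing particular about the pathway. The 5 that rose with each siRNA include TNFSF10, and the medians without it are -0.18 and -0.08. TNFRSF21 (DR6) rose from 1.22 and 1.17 FPKM with siNeg to 22.4 and 28.8 with siEWSR1 and 33.1 and 37.9 with siFLI1, which is 15.3-fold and 21.2-fold (limma adjusted p = 4.74e-06 and 2.71e-06). TNFRSF25 (DR3) rose from a mean of 1.73 FPKM to 15.7 and 13.5, but it overlaps PLEKHG5. The adaptor kinase RIPK1 rose from 4.00 to 7.60 and 8.42 FPKM. Ligands were scarce. FASLG was listed at 0 in 5 of 6 libraries, and TNFSF10, named after its values were seen and tested only because of its siFLI1 values, went from 0.0159 and 0.0171 FPKM to 0.580 and 0.700 with siEWSR1 and 1.34 and 1.13 with siFLI1.

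**Figure D4:**
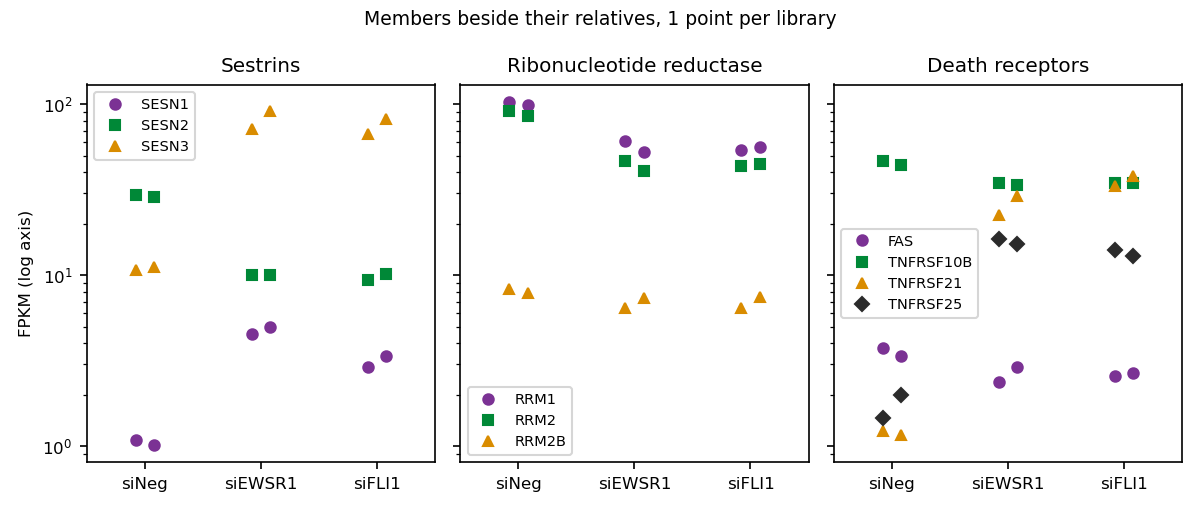
FPKM (log axis) of SESN1, RRM2B, FAS and TNFRSF10B beside relatives that share their function, with 1 point per library in the siNeg, siEWSR1 and siFLI1 groups (x axis). SESN2 and SESN3 cross over, RRM1 and RRM2 drop while RRM2B stays between 6.38 and 8.27 FPKM, and TNFRSF21 goes from near 1 FPKM to at least 22.4.

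Several members answer to other factors too, so the genes of those routes were counted. Of 18 genes of the ATF4 and CHOP stress response, 16 fell with each siRNA, while 1 rose with siEWSR1 and 2 with siFLI1 (median log2 change -1.49 and -1.31). Among all tested genes, 31% fell with siEWSR1 and 29.6% with siFLI1, while 33.2% and 35.7% rose. ATF4 went from a mean of 275 FPKM to 138 and 145 and DDIT3 from 83.7 to 24.2 and 27.5, both named after their values were seen. TRIB3 (-3.55 and -3.45 on the log2 scale), ASNS (-3.36 and -3.32) and CHAC1 (-4.83 and -4.46) fell most. SESN2 and DDIT4 stand both in this list and among the p53 targets. GDF15, also known as an ATF4 target, rose while that list fell, and TNFRSF10B, also known as a CHOP target, fell with it. What part this route has in either gene was not tested.

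All 17 genes listed as bound by the DREAM complex, the repressor through which p21 lowers cell cycle genes, fell with both siRNAs (median log2 change -1.12 with siEWSR1 and -1.09 with siFLI1). The share of all tested genes that fell was 31% with siEWSR1 and 29.6% with siFLI1. CDK1 fell by 1.56 and 1.58 on the log2 scale, PLK1 by 1.52 and 1.60, and AURKA by 1.63 and 1.78. CDC25C fell by 1.62 and 1.74 but overlaps FAM53C. Such genes also follow the share of dividing cells, which was not measured here.

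For each member, the tested gene nearest in pattern was found as the smallest Euclidean distance over the 6 libraries between log2(FPKM + 0.5) values after subtraction of the siNeg mean. TNFRSF10B had the closest neighbour, MRPS9 of the mitochondrial ribosome, at a distance of 0.022. RRM2B was nearest to WARS2 (0.0427), FAS to TMEM170A (0.0768), MDM2 to PNRC1 (0.0825) and ZMAT3 to MSI2 (0.118). The members with larger changes had more distant neighbours, TP53I3 with COL3A1 (0.184), SESN1 with ARPP21 (0.197), GDF15 with IDNK (0.201) and TP53INP1 with KRT13 (0.229). None of these neighbours is another member, and a short distance over 6 libraries describes these libraries only. KRT13 was at 0.0172 and 0 FPKM with siNeg and passed the filter only through its siFLI1 libraries (1.14 and 1.70 FPKM). Its log2 change with siFLI1 ran from 1.25 to 3.78 over the alternatives, so its nearness to TP53INP1 depends on the 0.5 added to FPKM.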

How the data were processed

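RNA-seq was measured in 6 libraries of TC32 cells, 2 per siRNA. The authors deposited gene-level FPKM with 95% bounds, made with TopHat2 2.0.13, Cufflinks and Cuffdiff on hg19, per the submitters' processing notes. Sources used here do not give the annotation or the strand setting. FPKM of symbols on more than 1 row were summed, and 13043 genes that reached 1 FPKM in 2 or more libraries were tested on the log2(FPKM + 0.5) scale by limma 3.58.1 under R 4.3.3 (1 fit over 6 libraries, variance trend, 3 residual and 3.39 prior degrees of freedom, two-sided, Benjamini-Hochberg, threshold 0.05). The FPKM bounds were read as 2 times the value over the root of the fragment number, which gives implied fragments. These are estimates and not read counts. The bounds belong to single libraries and do not cover the spread between replicates. Whether they hold more than counting error was not tested. The fit was tested on simulated data. Coordinates are hg19 except for the printed sequences (RefSeq, GRCh38.p14). The members and lists were chosen with earlier results of these data known. Named genes are the members, EWSR1, FLI1, CDKN1A, MDM4, PPM1D, overlapping genes, nearest patterns and, per list and siRNA, up to 3 called genes by size of change, whose values do not overlap between the groups and reach a mean of 2 FPKM in the higher group. Any other gene was chosen after its values were seen. The alternatives were 16 planned and 1 added after seeing the data.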

Additional observations from a re-analysis of the deposited data

How the results depend on the processing

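The members gave 450 values under the alternatives, of which 416 kept their side of the threshold, 25 lost the call, 9 gained it and 0 changed sign with a call. Of the 416, 12 changed sign, none of them called: 1 of ZMAT3 with siFLI1, and 4 of RRM2B, 4 of FAS and 3 of TNFRSF10B between the siRNAs. The stricter filter, a mean of 5 FPKM, left 4 members higher with siEWSR1 in place of 6 and 4 with siFLI1 in place of 5. It took SESN1, ZMAT3 and FAS out of the test, so the lower member counts under it are removals and not lost calls. The 2 members lower with siEWSR1, and likewise the 2 lower with siFLI1, became 1 with no filter and 1 when a mean of 5 FPKM was required, and 1 to 2 when single libraries were left out. Against siFLI1, the 1 member higher with siEWSR1 became 0 with no filter, under that stricter filter, with only the 2 groups compared and without any single library, and the 1 lower member became 0 with no filter, with no variance trend and with only the 2 groups compared, and 0 to 1 without single libraries. With the stricter filter, 15 other p53 targets were higher with siEWSR1 and 20 with siFLI1, and listed genes under a mean of 5 FPKM were not tested. Deviations of same-numbered replicates correlated at -0.137, -0.053 and 0.069. Whether same-numbered samples share a culture or batch is not in the labels, and these correlations cannot tell. With the replicate block 0 members were higher with siEWSR1 than siFLI1, and the calls over all genes in that comparison were 57 higher and 262 lower in place of 103 and 401. With the siNeg numbers crossed, a pairing added after seeing the data, the members called were 6 higher and 3 lower with either siRNA against siNeg, and 153 and 523 genes were called between the siRNAs. Over all alternatives those counts ran from 3 to 209 and from 2 to 640. Against siNeg, the stricter filter, which tests fewer genes, left 2518 higher genes with siEWSR1 in place of 4331 and 2787 with siFLI1 in place of 4656. Depth limits TP53I3 most, with as few as 45 implied fragments.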
